A study of Homo sapiens with 6 samples.

Results

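The genes described here are FN1, which encodes fibronectin, and 9 genes of elastic fibres and their microfibrils: FBN1, FBN2, ELN, FBLN1, FBLN2, FBLN5, EFEMP1, LTBP1 and LTBP2. They were chosen by name, as every probe whose single gene symbol was one of these 10, out of 18365 genes on the array, and 19 of the 24740 probes with 1 symbol carried them. Expression was measured in HM20 cells, given in the labels as A549, an established human lung adenocarcinoma line. The labels leave HM20 unexplained. The 5 tested populations are stable clones, SFRP1 to SFRP5, each labelled after the secreted Frizzled-related protein that it is said to express. The control is the HM20 Mock population. All 6 populations were kept for 24 hours in medium containing Wnt3a, a ligand of the Wnt pathway, so no response to Wnt3a itself was measured. Each population has 1 one-colour array and no replicate, so every value below is limited in precision by the number of arrays, and a clone cannot be separated from the gene it carries.

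Fibronectin is a secreted glycoprotein that cells assemble into fibrils through integrins, and other matrix proteins are deposited on that scaffold. Elastic fibres have a core of crosslinked elastin laid on microfibrils of fibrillins. Fibulins bind elastin, fibrillins or basement membrane proteins and help the fibre to form, and latent TGF-beta binding proteins (LTBPs) anchor microfibrils and, for LTBP1, hold latent TGF-beta in the matrix. In the lung these fibres carry elastic recoil, while fibronectin is abundant in repair and in tumour cells with mesenchymal traits.

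FN1, LTBP1 and FBN2 differed most between the clones and mock. FN1 and LTBP1 were lower in all 5 clones than in mock. FN1 was 1.67-fold lower in the SFRP3 clone and up to 42.9-fold lower in SFRP2. LTBP1 was only 1.17-fold lower in SFRP1 and up to 18.3-fold lower in SFRP5. FBN2 was higher in all 5 clones, from 1.61-fold in SFRP5 to 15.2-fold in SFRP4. For each of these genes the values rest on 1 probe and 1 mock array. ELN, FBN1 and FBLN2 stayed within 2-fold of mock in every clone. All differences are log2(intensity + 1) of a clone minus mock, and 1 log2 unit is 2-fold. Because RNA came from whole cultures, fewer cells of a type and less RNA per cell cannot be told apart.

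The arrays were close to each other over all probes, with pairwise Pearson correlations of 0.954 to 0.982 across probes, which are not independent replicates. Array medians lay between 599.6 and 689.0, and the 10th percentile of intensity, used below as a floor, between 53.2 and 91.0. The SFRP4 array had 22 values below 0, and the other arrays had none. The probe of a clone's own SFRP gene differed from mock by 0.58 in SFRP1 and by -0.12 for FRZB (the gene of SFRP3) in SFRP3. It lay below the floor in the SFRP2, SFRP4 and SFRP5 clones, at 58.1, 53.3 and 44.5, against 72.4, 67.7 and 70.5 in mock. So only the SFRP1 label is matched by a higher reading, 88063 against 58836 in mock, where SFRP1 was thus already bright. Whether these probes lie in the introduced sequences was not known here, and each clone is named by its label throughout.

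The upstream sequences of FN1 and LTBP1, both lower than mock in every clone, and of FBN2, higher in every clone, are shown so that the genes with the widest spread can be compared. They are the 250 bases before the gene's start in RefSeq (GRCh38.p14), read 5′ to 3′ along the gene's strand: FN1 at chr2:215436069-215436318 (minus strand), LTBP1 at chr2:32946703-32946952 (plus strand, the first of 3 listed starts) and FBN2 at chr5:128538246-128538495 (minus strand). Capitals mark TGACGTCA, the palindromic cAMP response element, and TATAA.
FN1: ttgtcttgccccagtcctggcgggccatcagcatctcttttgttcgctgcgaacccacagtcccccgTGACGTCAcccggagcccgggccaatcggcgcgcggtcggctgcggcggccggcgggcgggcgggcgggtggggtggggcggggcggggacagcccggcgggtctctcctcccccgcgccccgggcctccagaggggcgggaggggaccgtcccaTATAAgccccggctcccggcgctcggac
LTBP1: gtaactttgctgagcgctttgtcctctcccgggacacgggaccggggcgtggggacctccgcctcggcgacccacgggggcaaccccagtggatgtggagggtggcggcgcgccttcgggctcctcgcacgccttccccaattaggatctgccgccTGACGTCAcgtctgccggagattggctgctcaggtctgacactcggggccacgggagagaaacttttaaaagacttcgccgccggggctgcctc
FBN2: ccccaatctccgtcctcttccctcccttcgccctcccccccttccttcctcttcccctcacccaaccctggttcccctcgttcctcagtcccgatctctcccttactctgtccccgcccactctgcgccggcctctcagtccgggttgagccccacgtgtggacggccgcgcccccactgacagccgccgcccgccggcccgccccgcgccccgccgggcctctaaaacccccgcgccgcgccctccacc

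FN1 held TGACGTCA from 183 bases before its start and TATAA from 28 bases before it, and LTBP1 held TGACGTCA from 94 bases before its start. The motifs were chosen after the sequences had been seen, were searched on both strands and did not overlap. TGACGTCA occurred in 2 of the 8 members with a sequence in the RefSeq table, FN1 and LTBP1, and in 482 of all 27305 upstream sequences (1.77%). TATAA occurred in 1 of the 8, against 19.6% of all, and CTTTGA, a core of TCF/LEF sites, in 0 of the 8, against 11.4%. A match or its absence describes these letters only. No upstream sequence is shown for the other 7 genes.

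FN1 read 45611 in the SFRP1 clone, 4774 in SFRP2, 122894 in SFRP3, 67437 in SFRP4 and 20460.0 in SFRP5, against 204995 in mock. Mock had the highest value, and no clone reached it. The log2 differences from mock were -2.17, -5.42, -0.74, -1.60 and -3.32 in SFRP1 to SFRP5. The clones also differed from each other: SFRP2 lay 4.69 log2 units (25.7-fold) below SFRP3. The distance to mock ran from 0.74 in SFRP3 to 5.42 in SFRP2. The order, from low to high, was SFRP2, SFRP5, SFRP1, SFRP4, SFRP3 and mock, and with 1 array each no neighbours in it can be tested against a spread.

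The other FN1 probe read 8.25 to 51.9 in the clones and 32.9 in mock, below the floor of each of the 6 arrays, and gives no order. Averaged with it, FN1 differed by -0.76 in SFRP1, -2.83 in SFRP2 and -1.31 in SFRP3, so the sizes above rest on 1 probe. FN1 was among the most variable genes of the array set. Its range over the 6 arrays, 5.42 log2 units, was reached by 43 of the 11954 genes bright enough to be kept, FN1 included (0.360%). A gene was kept when its brightest array reached the median intensity of the table, 641.8.

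**Figure D1:**
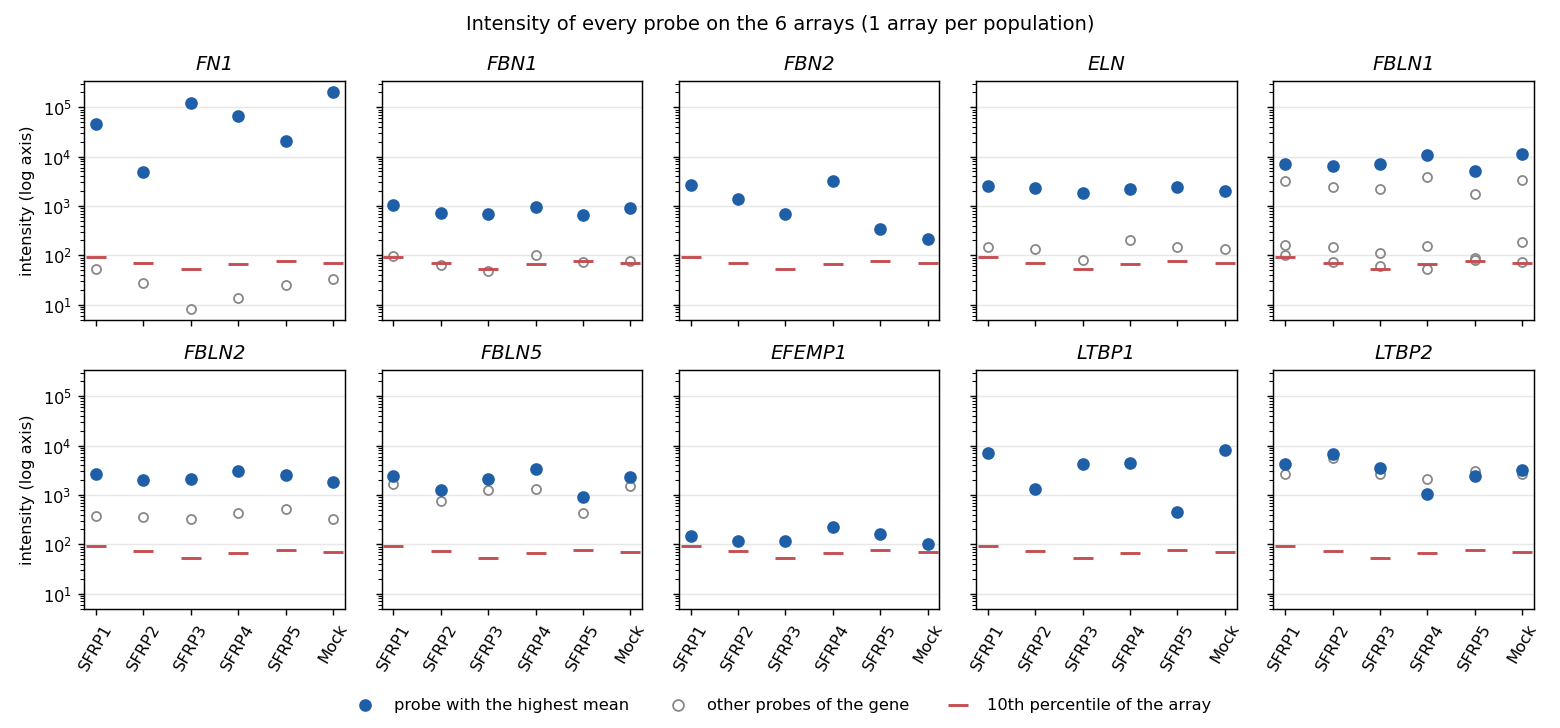
Intensity of every probe of the 10 genes on the 6 arrays, on a log axis; filled points are the probe with the highest mean, open points the other probes, and red bars the 10th percentile of each array. FN1 ran between 4774 and 122894 in the clones against 204995 in mock, while EFEMP1 read 102.4 to 225.5, above the 10th percentile of each array and below the median used as a filter.

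The LTBP genes differed from each other in pattern. LTBP1, whose product carries latent TGF-beta, read 6959 in SFRP1, 1304 in SFRP2, 4226 in SFRP3, 4337 in SFRP4 and 446.0 in SFRP5, against 8169 in mock. Its single probe was lower than mock in all 5 clones, but only by 0.23 in SFRP1, while SFRP2 and SFRP5 stood well below the other arrays (-2.65 and -4.19). SFRP3 and SFRP4 differed by -0.95 and -0.91, and crossed 2-fold under median centring (-1.01 and -1.03). LTBP1 ranged over 4.19 log2 units, a range that 110 of the kept genes reached, LTBP1 included (0.920%).

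LTBP2, whose product binds microfibrils but is not known to carry latent TGF-beta, read 4306 in SFRP1, 6671 in SFRP2, 3545 in SFRP3, 1044 in SFRP4 and 2416 in SFRP5, against 3259 in mock. It was highest in SFRP2, where LTBP1 was low, and mock lay within the clones. The difference was 1.03 in SFRP2 and -1.64 in SFRP4. The other LTBP2 probe read 5641 in SFRP2, 2087 in SFRP4 and 2653 in mock, a difference of 1.09 in SFRP2 but of -0.35 in SFRP4. The probes thus gave like values for the higher level in SFRP2 and unlike sizes for SFRP4. They differed in sign in SFRP3 (0.12 and -0.02) and in SFRP5 (-0.43 and 0.22). The 2-fold mark in SFRP2 was missed by the first probe under quantile normalization (0.97) and median centring (0.93).

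The fibrillin genes also went separate ways. FBN2, which encodes fibrillin 2, a microfibril component best known from developing tissue, read 2702 in SFRP1, 1377 in SFRP2, 686.7 in SFRP3, 3238 in SFRP4 and 340.7 in SFRP5, against 211 in mock. Every clone lay above mock, by 3.67, 2.70, 1.69, 3.93 and 0.69 log2 units. The mock value was above the floor of its array, 69.5, but under the median used as a filter, so FBN2 was kept only through the clones SFRP1 to SFRP4, where it was high. FBN2 has a single probe, and its values in 1 mock array set all 5 differences.

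FBN1, which encodes fibrillin 1, the main fibrillin of adult microfibrils, read 1035 in SFRP1, 737.2 in SFRP2, 685.8 in SFRP3, 949.7 in SFRP4 and 659.7 in SFRP5, against 899.4 in mock. Its differences ran from -0.45 in SFRP5 to 0.20 in SFRP1, and the one in SFRP4 (0.08) turned to -0.04 under median centring. Mock lay within the clones. In SFRP1, for example, FBN2 was 12.7-fold and FBN1 1.15-fold its own mock value. The other FBN1 probe lay below the floor on 3 arrays.

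ELN, which encodes tropoelastin, the precursor of the elastic core, read 2589 in SFRP1, 2364 in SFRP2, 1813 in SFRP3, 2246 in SFRP4 and 2480.5 in SFRP5, against 1982 in mock. It had the narrowest range of the 9 kept genes, 0.51 log2 units, which 91.4% of all kept genes equalled or exceeded. The differences from mock were -0.13 in SFRP3 and 0.18 to 0.39 in the other clones. The dimmer ELN probe had the same sign in 5 of 5 clones, with -0.73 in SFRP3 and 0.61 in SFRP4 at its ends.

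Among the fibulins, FBLN5 and FBLN1 were lowest in the SFRP5 clone on their brightest probes. FBLN5, whose product links elastin to cells and is needed for elastic fibre assembly in mice, read 2439 in SFRP1, 1237 in SFRP2, 2127 in SFRP3, 3320.5 in SFRP4 and 912.5 in SFRP5, against 2293 in mock. SFRP2 and SFRP5 lay below every other array, with log2 differences from mock of -0.89 and -1.33. The other FBLN5 probe had the same pair lowest, at 748.4 in SFRP2 and 436.2 in SFRP5, against 1495 in mock (a difference of -1.77 in SFRP5). In SFRP4 the probes differed in sign, at 0.53 and -0.17, and the difference in SFRP1 was near 0 (0.09, or -0.03 under median centring).

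FBLN1, whose product binds fibronectin and basement membrane proteins, read 7152 in SFRP1, 6359 in SFRP2, 7175 in SFRP3, 10671 in SFRP4 and 5201 in SFRP5, against 11297 in mock. All clones lay below mock, but SFRP4 by only 0.08, and SFRP5 alone passed 2-fold (-1.12). The second brightest FBLN1 probe read 1749 in SFRP5 and 3919 in SFRP4, against 3394 in mock. Its differences were -0.96 in SFRP5 and 0.21 in SFRP4, so that mock was not the highest array on it. A dimmer FBLN1 probe was lower than mock in all 5 clones (-1.18 to -0.19). The dimmest, below the floor on 1 array, was higher than mock in SFRP1, SFRP2 and SFRP5 (0.49, 0.05 and 0.28). It was lower in SFRP3 and SFRP4 (-0.25 and -0.43). With the 4 FBLN1 probes averaged, the SFRP5 clone differed by -0.75.

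FBLN2, another fibulin of the matrix around elastic fibres and basement membranes, read 2619 in SFRP1, 2053 in SFRP2, 2105 in SFRP3, 3049.9 in SFRP4 and 2594 in SFRP5, against 1848 in mock. Mock was the lowest array, with differences of 0.15 to 0.72. The dimmer FBLN2 probe differed by -0.05 in SFRP3 and by 0.13 to 0.67 in the other clones. EFEMP1, which encodes fibulin 3, read 147.8, 116.1, 115.5, 225.5 and 158.4 in SFRP1 to SFRP5, against 102.4 in mock. It lay above the floor on all 6 arrays but was too dim to be kept, and its difference of 1.13 in SFRP4 rests on a single probe.

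**Figure D2:**
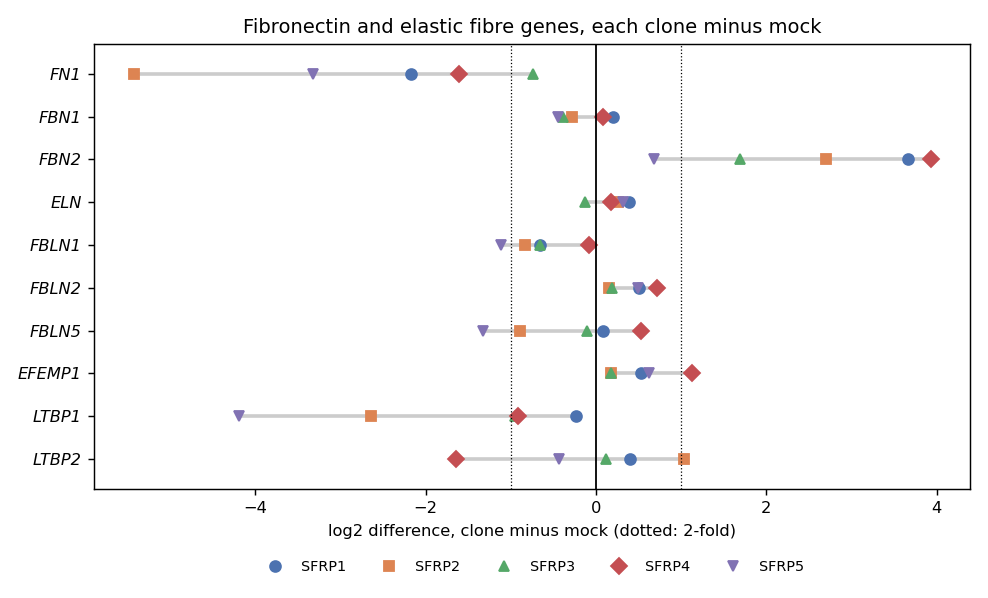
Log2 difference of each clone from mock for the probe with the highest mean of each gene; each marker is 1 array against the mock array, grey lines join the lowest and highest clone, and dotted lines mark 2-fold. All FN1 and LTBP1 markers lie left of 0 and all FBN2 markers right of it.

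Of the 10 genes 9 were bright enough to be kept, and 6 of these 9 (FN1, FBN2, FBLN1, FBLN5, LTBP1 and LTBP2) lay at least 2-fold from mock in 1 or more clones, against 29.0% of all kept genes. In the SFRP1 clone 1 of 9 was at least 2-fold higher (FBN2), against 4.41% of all kept genes, and 1 was lower (FN1), against 4.33%. In SFRP2 there were 2 higher (FBN2 and LTBP2), against 2.80%, and 2 lower (FN1 and LTBP1), against 3.89%. In SFRP3 FBN2 was higher, against 3.73%, and 0 of 9 were lower, against 3.15%. In SFRP4 FBN2 was higher, against 5.97%, and FN1 and LTBP2 were lower, against 7.51%. The SFRP5 clone had the most on the low side: 0 of 9 were higher, against 5.98%, and 4 were lower (FN1, FBLN1, FBLN5 and LTBP1), against 6.53%. These are counts over 9 genes with no test, and the 5 comparisons share 1 mock array. FBN2 was kept only through the clones SFRP1 to SFRP4, where it was high. Its part in the counts of higher genes is therefore no support for a difference.

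Scaling moved both the shares and the counts. Median centring shifted the differences of all probes by -0.05 (SFRP3) to -0.20 (SFRP5), and the shares of all kept genes then ran from 2.12% to 4.50% higher and from 3.60% to 10.4% lower. Under it 1 gene was higher in SFRP2, and 1 (LTBP1) was lower in SFRP3 and 3 in SFRP4. The median difference of the 9 genes was 0.20 in SFRP1, -0.29 in SFRP2, -0.13 in SFRP3, 0.08 in SFRP4 and -0.45 in SFRP5, beside 0.05, 0.08, 0.03, 0.06 and 0.10 for all kept genes. The SFRP4 median turned to -0.04 under median centring.

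Mock lay above all 5 clones for 3 of the 9 genes (FN1, FBLN1 and LTBP1), against 8.51% of all kept genes, and below all 5 for 2 (FBN2 and FBLN2), against 14.5%. Because FBN2 was kept only through clones in which it was high, its place below all 5 is no support for a difference. For FBLN1 and FBLN2 the step from mock to the nearest clone was 0.08 and 0.15, less than the clones' own spread of 1.04 and 0.57. For FN1, LTBP1 and FBN2 it was 0.74, 0.23 and 0.69, also less than the spread of 4.69, 3.96 and 3.24 among the clones. The smallest step is set here against the widest spread, so these values are a description and not a test.

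**Figure D3:**
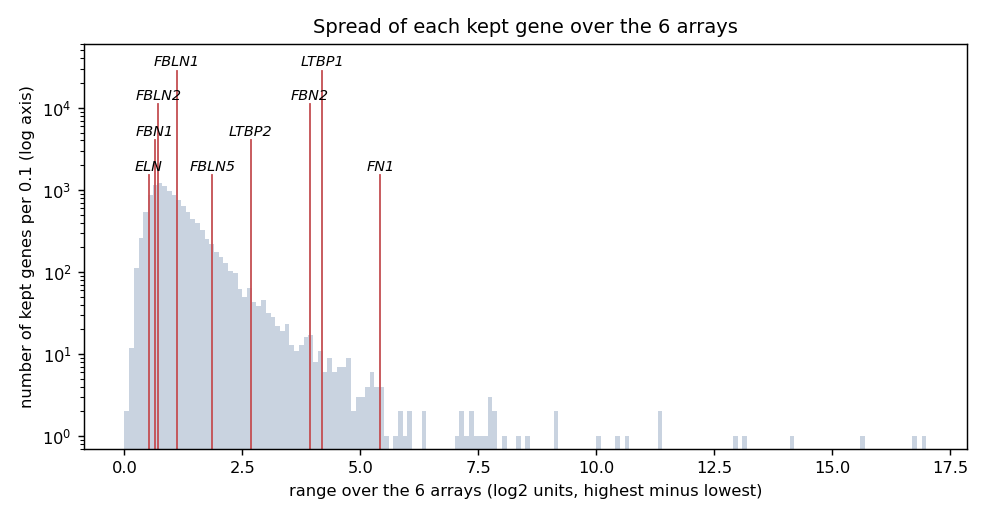
Histogram of the range of each of the 11954 kept genes over the 6 arrays (log2 units, number of genes on a log axis), with the 9 kept genes marked by red lines. FN1, LTBP1 and FBN2 lie in the upper tail at 5.42, 4.19 and 3.93, and ELN lies at the low end at 0.51. FBN2 was kept only through clones in which it was high, so its place in the tail is no support for a difference.

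The clones as a set were tested against mock with limma across all kept genes. This fit takes the spread between clones of different SFRP genes as its error, and assumes that the single mock array varies like them. None of the 9 genes was called (limma adjusted p = 1.00 for each), against 0.0418% of all kept genes. Before adjustment, limma placed 1 of the 9 (FBN2) and 261 of the 11954 kept genes (2.18%) below the 0.05 level. FBN2 was kept only through clones in which it was high, so its p and interval are no support for a difference. The mean difference of FN1 was -2.65 ± 1.81 (SD, n = 5 clones; 95% interval of the fit -5.84 to 0.54). FBN2 differed by 2.54 ± 1.36 (interval 0.10 to 4.97) and LTBP1 by -1.79 ± 1.61 (interval -4.64 to 1.07).

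Among the 15 pairs of arrays, the SFRP4 and SFRP5 arrays had the most of these genes at least 2-fold apart. There were 6 of the 9, against 20.5% of all kept genes, which was also the highest share of any pair. One of the 6, FBN2, was kept only through clones in which it was high, SFRP4 among them. The pair was picked after the values were seen, and the largest difference of a single gene, that of FN1 between SFRP2 and mock, lay in another pair. FN1 read 67437 in SFRP4 and 20460.0 in SFRP5, FBN2 3238 and 340.7, and LTBP1 4337 and 446.0. FBLN5 and FBLN1 were also higher in SFRP4 (3.64-fold and 2.05-fold), while LTBP2 was 2.31-fold lower there. The other LTBP2 probe read 2087 in SFRP4 and 3083 in SFRP5, less than 2-fold apart, so the count depends on the probe. ELN, FBN1 and FBLN2 were less than 2-fold apart.

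The kept genes with the pattern nearest to that of FN1, by Euclidean distance of the 6 log2 values after each gene's own mean was taken off, were ALCAM (1.63), PARM1 (2.06), NMU (2.36), CPE (2.36) and ANGPT1 (2.48), where the median distance of all kept genes was 4.50. ALCAM, which encodes a cell adhesion molecule, read 735.2 in SFRP1, 124.1 in SFRP2, 1771 in SFRP3, 1294 in SFRP4 and 478.5 in SFRP5, against 1303 in mock. Like FN1 it was lowest in SFRP2, but mock was not its highest array. For LTBP1, the member with the next widest range, they were RNF150 (1.37), TFPI (1.57), FSTL1 (1.63), LURAP1L (1.67) and FCRL6 (1.71), with a median of 3.78. TFPI, the tissue factor pathway inhibitor gene, read 22345 in SFRP1, 7282 in SFRP2, 6082 in SFRP3, 7593 in SFRP4 and 1145 in SFRP5, against 26880.4 in mock.

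Genes that act with fibronectin and elastic fibres were read from 6 lists, in which LTBP3 and TIMP1 each stand in more than one. Of 24 further elastic fibre genes (relatives of the fibulins, fibrillins and LTBPs, emilins, microfibril-associated proteins and proteoglycans), 13 were kept. Of these 13, 0 or 1 were at least 2-fold higher and 0 or 1 lower in any clone. Over all kept genes the shares per clone were 2.80% to 5.98% higher and 3.15% to 7.51% lower. The list's median difference ran from -0.15 (SFRP3) to 0.41 (SFRP5), beside 0.03 and 0.10 for all kept genes. VCAN, which encodes the proteoglycan versican, had the largest difference from mock in any clone. It read 477.7 in SFRP1, 88.3 in SFRP2, 834.3 in SFRP3, 2046 in SFRP4 and 889.8 in SFRP5, against 339.3 in mock, and its other probe was highest in SFRP4 (2.21) and lowest in SFRP2 (-0.63) as well. THSD4, whose product binds fibrillin 1, lay 2-fold or more from mock in SFRP4 alone of the 5 clones, at -2.52 (-1.87 on its other probe).

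Of 8 kept genes of crosslinking enzymes, 4 were at least 2-fold lower in SFRP5, against 6.53% of all kept genes (10.4% under median centring), and 0 were higher, against 5.98%. In the other clones 0 or 1 were higher and 1 or 2 lower, against 2.80% to 5.97% and 3.15% to 7.51% of all kept genes. The median difference ran from -0.85 in SFRP5 to 0.21 in SFRP1. Under median centring it was -1.28 in SFRP5 and 0.10 in SFRP1, and SFRP4 was then highest at 0.32. The filter on dim genes was applied anew there, so these medians do not describe the same genes of the list. LOX, lysyl oxidase, which crosslinks elastin and collagen, read 10606 in SFRP1, 3268 in SFRP2, 793.1 in SFRP3, 3535 in SFRP4 and 720.5 in SFRP5, against 1578 in mock. SFRP1, SFRP2 and SFRP4, the clones with the most FBN2 signal, lay above mock on all 3 LOX probes, and SFRP3 and SFRP5 below it on all 3. The other probes differed by 3.17 and 2.01 in SFRP1 and by 2.16 and 1.67 in SFRP4. TGM2, transglutaminase 2, which crosslinks fibronectin among other proteins, read 4212, 4737, 4341, 1780.5 and 3218 in SFRP1 to SFRP5, against 11134 in mock. Its differences of -1.40, -1.23, -1.36, -2.64 and -1.79 were matched in sign by its other probe in 5 of 5 clones (-1.04 to -2.17), but TGM2 was not called for the set (limma adjusted p = 1.00).

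**Figure D4:**
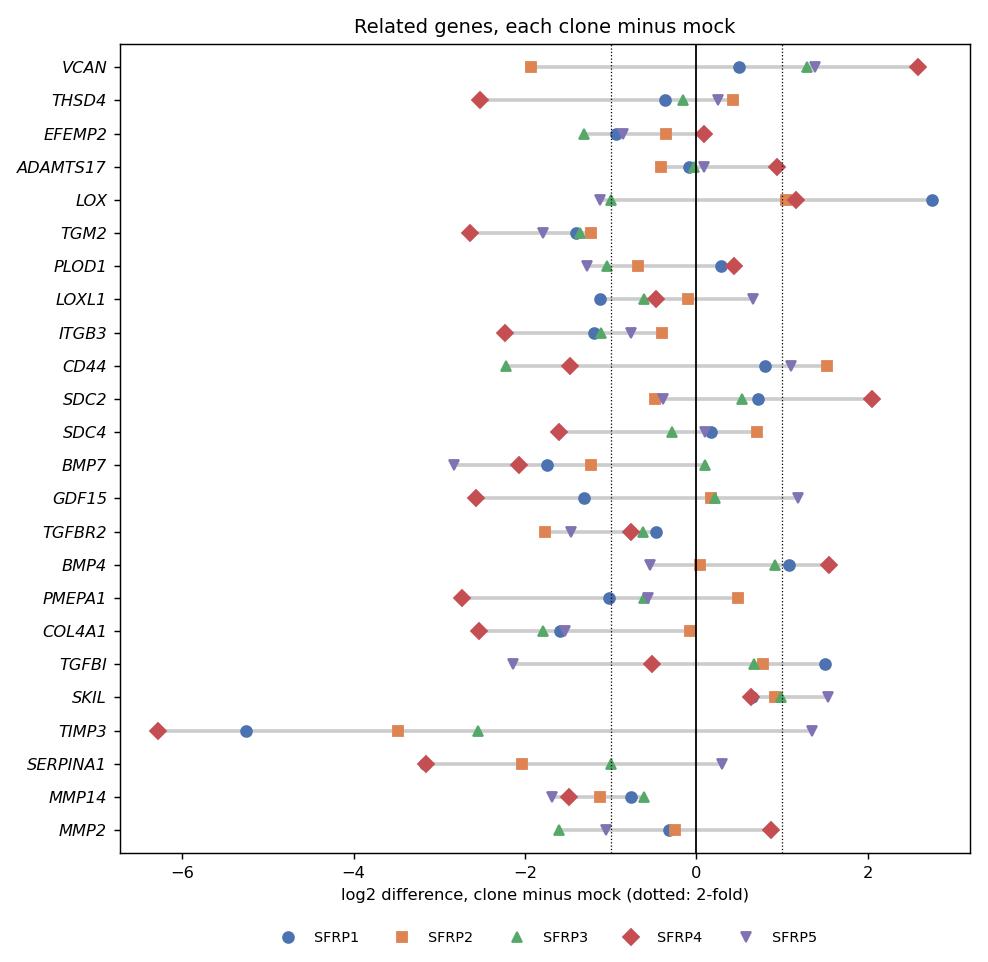
Log2 difference from mock in each clone for the up to 4 kept genes per related list with the largest difference in any clone; markers and lines are as in the plot of the 10 genes. TGM2, ITGB3, TGFBR2, COL4A1 and MMP14 lie left of 0 in all 5 clones, and SKIL right of 0.

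Of 13 kept fibronectin receptor genes (integrins, syndecans, CD44 and PLAUR), 0 or 1 were at least 2-fold higher and 1 to 3 lower in a clone. Over all kept genes the shares per clone were 2.80% to 5.98% higher and 3.15% to 7.51% lower. The 3 lower genes were in SFRP4, the clone with the 7.51%. The list's median difference ran from -0.46 in SFRP4 to 0.27 in SFRP2, where it was -0.02 under median centring. Median centring itself moved every SFRP2 difference by only -0.11, and the filter, applied anew, kept other genes of the list. The SFRP1 median of -0.04 was 0.10 under quantile normalization, where the filter was also applied anew. ITGB3, the beta3 subunit of an integrin that binds fibronectin, read 4478, 7717, 4725, 2178 and 6022 in SFRP1 to SFRP5, against 10228 in mock, and mock was the highest array.

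Beside LTBP1, a list of TGF-beta and BMP ligand genes, TGF-beta receptors and activators was read, not all of them binding partners of LTBP1. Of 11 kept genes of that list, 0 to 2 were at least 2-fold higher and 0 to 3 lower in a clone. Over all kept genes the shares per clone were 2.80% to 5.98% higher and 3.15% to 7.51% lower. The list's medians ran from -0.33 in SFRP1 to 0.16 in SFRP5 (-0.04 under median centring). TGFBR2, the type II TGF-beta receptor gene, read 22506, 9181, 20303, 18431 and 11308 in SFRP1 to SFRP5, against 31242 in mock. As with LTBP1, SFRP2 and SFRP5 were the lowest arrays (-1.77 and -1.47). On its other probe they were also lowest (-1.46 and -0.84), but SFRP3, at -0.81, was not set apart from SFRP5. Of 12 kept TGF-beta target genes, 0 or 1 were at least 2-fold higher and 0 to 3 lower in a clone, beside the same shares. SFRP4 had 0 higher and 3 lower, against 5.97% and 7.51% of all kept genes. SFRP5 had 1 higher and 3 lower, against 5.98% and 6.53%. The target list's median was -0.41 in SFRP4 and 0.07 to 0.31 in the other clones. Under median centring it was -0.53 in SFRP4 and -0.05 to 0.26 in the others. TGFBI, a matrix protein induced by TGF-beta, read 17287 in SFRP1 and 1386 in SFRP5, against 6101 in mock.

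Among 9 kept genes for proteases that cut elastin or matrix and their inhibitors, 0 or 1 were at least 2-fold higher and 2 to 4 lower in a clone. Over all kept genes the shares per clone were 2.80% to 5.98% higher and 3.15% to 7.51% lower. The 4 lower genes were in SFRP4, the clone with the 7.51%. MMP14, a membrane-bound metalloproteinase gene, read 40593, 31755, 45176, 24636 and 21425 in SFRP1 to SFRP5, against 69108 in mock, and was lower in 5 of 5 clones (-1.14 ± 0.46, SD; limma adjusted p = 1.00). TIMP3, whose product is a metalloproteinase inhibitor bound to the matrix, ranged from 170.8 in SFRP4 to 33892 in SFRP5, against 13336 in mock. The list's median was 0.15 in SFRP4 and 0.21 in SFRP5, and -0.65 and -0.30 under median centring. Median centring itself moved every SFRP4 difference by only -0.12 and every SFRP5 difference by only -0.20. The filter on dim genes was applied anew there and kept other genes of the list, so these medians do not describe the same genes.

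Cell type markers were read beside these values. The sums given for a marker list cover all its genes on the array, kept or not. Of 10 epithelial markers 5 were kept (KRT19, KRT7, CDH1, KRT8 and CLDN4), and GRHL2 lay below the floor on all 6 arrays. CDH1, E-cadherin, read 384.7, 439.0, 2178, 688.7 and 614.1 in SFRP1 to SFRP5, against 1306 in mock, highest in SFRP3. In SFRP3, KRT7 differed from mock by -2.53, KRT19 by 0.03, KRT8 by 0.45 and CLDN4 by -0.15. KRT19, KRT7, KRT8 and CLDN4 differed by -3.33, -1.55, -0.95 and 0.37 in SFRP1 and by -3.56, -2.87, -0.97 and -0.03 in SFRP4. Of the 5 kept, 3 were at least 2-fold lower in SFRP1, 2 in SFRP2, 1 in SFRP3, 2 in SFRP4 and 1 in SFRP5. At least 2-fold higher were 1 in SFRP5 (KRT8) and 0 in the other clones. Over all kept genes the shares per clone were 2.80% to 5.98% higher and 3.15% to 7.51% lower. The list's median was -1.55 in SFRP1 and -0.97 in SFRP4. The summed intensity of the epithelial list was 3435 to 8090.3 in the clones and 7677 in mock. Of 9 fibroblast markers 3 were kept (PDGFRA, LUM and COL1A1), COL3A1 and POSTN lay below the floor on all 6 arrays, and the sum was 3523 to 6590.4 in the clones and 3561 in mock. Smooth muscle markers had 2 of 6 genes kept, with LMOD1 below the floor throughout and clone sums of 3288 to 7276, against 5306 in mock. Of 7 endothelial and blood markers 4 were kept, with PTPRC below the floor throughout. The sum over all 7 was 3430 to 9003 in the clones and 13493 in mock, where CLDN5 and PECAM1 were highest. PECAM1, an adhesion molecule of endothelial cells, read 527.2 to 718.1 in the clones, against 4134 in mock (-2.66 ± 0.18, SD, n = 5 clones; limma adjusted p = 0.0718). The other 2 kept genes of the list had mock within the clones: VWF read 541.9 to 709.6 in the clones, against 608.0 in mock, and CD68 read 1271 to 6628, against 4249.7 in mock. The part of other cells or cell states in the FN1, LTBP1 and FBN2 values was not tested.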

How the data were processed

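The authors' deposited table holds one linear intensity per probe (31741 probes) for each of 6 one-colour Cy5 arrays, made from amplified total RNA per the labels' protocols. How spots were scanned, background-corrected or scaled is not stated in the labels. Below 2000, 100% of the values of each array were whole multiples (within 0.05) of 1 factor per array, between 0.795 and 1.37. Values below 0 were set to 0, 1 was added and log2 was taken, with no further normalization. Symbols came from the platform annotation supplied: 24740 probes had 1 symbol, 977 several and 6024 none, and only the first were used. All 10 symbols are current in RefSeq. Per gene the probe with the highest mean was used. Other probes of the 10 genes are plotted with the intensities and given in part in the text. Genes whose brightest array reached the table's median of 9.33 (log2) were kept (11954).

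Groups followed the sample titles. With 1 array per clone, no clone was tested alone. The set of 5 clones was compared with mock in R 4.3.3 with limma 3.58.1 (a moderated linear model with 4 residual degrees of freedom; two-sided p adjusted by Benjamini-Hochberg over all kept genes, threshold 0.05). Figures used matplotlib 3.10.9. Alternatives were quantile normalization, median centring, a pseudocount of 16, values raised to the 10th percentile, no filter or a stricter one, the mean of a gene's probes, a mean-variance trend and leaving out each clone. After each change of scaling or of probe rule the filter on dim genes was applied anew. Named genes were the 10, up to 4 kept genes per related list with the largest difference in any clone, and 5 nearest patterns each for FN1 and the other member of widest range. P-values measure only the spread between clones of 5 different SFRP genes. The members and lists were chosen with earlier results of these data known.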

Additional observations from a re-analysis of the deposited data

How the results depend on the processing

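For the set of clones, limma called 0 of the kept genes described here under each alternative run, a mean-variance trend and each left-out clone included (0 to 0 without 1 clone), with adjusted p between 0.999 and 1.00. The mean difference ran from -3.13 to -1.63 for FN1, from -2.18 to -1.19 for LTBP1, and was at least 2.19 for FBN2. Mock stayed above all clones for 3 genes without any 1 clone, and below all for 2 to 3. Among counts of genes at least 2-fold from mock, quantile normalization and median centring each gave 1 higher in SFRP2 and 1 lower in SFRP3. Averaging a gene's probes gave 0 lower in SFRP1, 1 lower in SFRP3, 1 lower in SFRP4 and 3 lower in SFRP5 (FBLN1 then lay at -0.75). The FN1 probe below the floor then counts as much as the bright one, and the probes of LTBP2 and of FBLN1 differ. Averaging also left 8 genes kept, since FBN1, with its dim second probe, no longer passed the filter. Without the filter on dim genes 2 were higher in SFRP4, the added one being EFEMP1. No difference of 1 log2 unit or more changed sign. No paired analysis was possible because each group has 1 array. Dim readings limit EFEMP1 and the second probes of FN1 and FBN1.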
